A study of Mus musculus with 48 samples.

Results

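Livers of mice given corticosterone, the ATGL inhibitor atglistatin, both or neither were examined here for 10 genes: the NRF2 antioxidant genes Gclc, Gclm, Hmox1, Srxn1, Txnrd1 and Cbr3, and G6pdx, Pgd, Taldo1 and Tkt of the pentose phosphate pathway. The genes are a list of symbols put together with earlier results of these data known. All 10 listed symbols were found among the 14251 genes of the deposited table, and all 10 passed the filter on low counts. The study profiled polyadenylated RNA in 48 liver libraries of male C57BL6J mice with Lexogen QuantSeq, which sequences the 3′ ends of transcripts.

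The 4 groups were as follows. Corticosterone, the principal glucocorticoid hormone of mice, was given at 100 ug/ml in the drinking water for 2 weeks together with food into which atglistatin (571 mg/kg) had been milled (14 libraries), or with control food (14 libraries). Vehicle water (1% ethanol) was given with the atglistatin food (10 libraries) or with control food (10 libraries). All mice were of 1 strain and 1 sex, none is labelled as genetically altered, and the food was Teklad chow. Atglistatin blocks adipose triglyceride lipase, the enzyme that begins the breakdown of stored triglyceride. The inhibitor was eaten, so its actions in the liver and in other tissues cannot be told apart. The labels mark 9 of the 14 corticosterone mice on control food, 1 of the 14 on atglistatin and none of the vehicle mice as diabetic. Fits without the mice labelled diabetic therefore kept only 5 corticosterone control-diet livers. Where a call was lost in such a fit, the effects of the label and of the fewer libraries cannot be told apart. Each library carries a glucose and an insulin value of its own and was taken as a separate mouse. In the tests below the spread is that between these libraries.

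NRF2, encoded by Nfe2l2, is a transcription factor that KEAP1 holds at a low level until oxidants or electrophiles modify KEAP1. It then pairs with a small MAF protein at antioxidant response elements and raises genes that make glutathione, recycle thioredoxin, reduce carbonyls and break down heme. These systems spend NADPH, much of which comes from the oxidative arm of the pentose phosphate pathway, while the non-oxidative arm returns pentose phosphates to glycolysis. The liver is a main site of glutathione synthesis and exports glutathione to the blood.

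The promoters are shown because an antioxidant response element near the start site is a known feature of NRF2 targets, and Cbr3 is shown beside them as the gene with the largest atglistatin response and no match. RefSeq promoter windows on GRCm38.p6, which cover 250 bases before and 50 bases after a transcript start, were present for 8 of the 10 genes. Gclc and Hmox1 were not among them. The core searched was TGACNNNGC on either strand, which reads GCNNNGTCA on the reverse strand. It was found in 12.4% of all 32851 windows and in 5 of the 11 windows of these genes, 1 each for Gclm, Txnrd1, G6pdx, Srxn1 and Pgd. The windows of Cbr3, Taldo1 and Tkt held no match, which says only that these letters are not in those windows. The 250 bases before the start are printed 5′ to 3′ in the direction of transcription, with the match in capitals. The match begins 134 bases before the start in Gclm, 92 bases before it in 1 of 3 Txnrd1 windows and 57 bases before it in G6pdx.
Gclm, chr3:122245307-122245556, plus strand: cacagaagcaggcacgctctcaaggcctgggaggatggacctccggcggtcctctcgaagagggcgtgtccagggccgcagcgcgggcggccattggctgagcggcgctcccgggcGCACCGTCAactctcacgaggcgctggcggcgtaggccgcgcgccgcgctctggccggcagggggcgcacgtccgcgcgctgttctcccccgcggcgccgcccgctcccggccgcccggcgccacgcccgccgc
Txnrd1, chr10:82858956-82859205, plus strand: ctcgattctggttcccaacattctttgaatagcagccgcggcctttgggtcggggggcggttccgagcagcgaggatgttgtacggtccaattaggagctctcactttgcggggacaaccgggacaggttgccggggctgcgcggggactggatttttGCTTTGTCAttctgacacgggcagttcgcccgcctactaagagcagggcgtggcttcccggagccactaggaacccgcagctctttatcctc
G6pdx, chrX:74428881-74429130, minus strand: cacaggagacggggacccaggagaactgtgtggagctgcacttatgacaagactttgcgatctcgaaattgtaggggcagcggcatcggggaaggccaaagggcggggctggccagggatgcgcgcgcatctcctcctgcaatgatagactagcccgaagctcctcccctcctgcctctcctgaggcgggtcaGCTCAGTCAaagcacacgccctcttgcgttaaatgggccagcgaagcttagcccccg
Cbr3, chr16:93682969-93683218, plus strand, no match: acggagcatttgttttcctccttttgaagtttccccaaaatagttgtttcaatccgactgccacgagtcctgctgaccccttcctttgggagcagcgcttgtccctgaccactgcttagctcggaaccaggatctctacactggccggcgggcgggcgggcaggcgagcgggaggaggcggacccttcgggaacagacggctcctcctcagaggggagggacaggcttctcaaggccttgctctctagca

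Total counts ran from 7449109 to 21175603 per library. No library pair within a group agreed within sampling noise (smallest chi-square per degree of freedom 6.70). Levels are CPM, counts scaled to a common TMM-adjusted library size. Hepatocyte markers were high in every library (summed level of 8 genes 81901 to 154149 CPM). Cpa1, a digestive enzyme gene of pancreatic acinar cells, exceeded 20 CPM in 6 libraries. These were corticosterone control-diet replicate 30, vehicle atglistatin replicates 6 and 11, and vehicle control-diet replicates 9, 10 and 15. On each diet, all 4 lymphocyte markers tested and 13 of 15 Kupffer cell and macrophage markers were called lower under corticosterone than under vehicle. Of all genes, 21.7% were called lower on the control diet and 17.7% on atglistatin. The lymphocyte list had 12 genes, of which only these 4 were tested. Of 8 sinusoidal endothelial markers, 3 were called lower on the control diet and 7 on atglistatin, and 0 were called higher on either. In bulk liver, fewer cells of a type and less RNA per cell cannot be told apart.

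Under corticosterone on the control diet, Gclc, G6pdx and Hmox1 were called lower while Cbr3, Taldo1 and Pgd were called higher. The Hmox1, Cbr3, Taldo1 and Pgd calls did not hold in every alternative fit given below, and that of Pgd was at the edge of the threshold. With atglistatin, Cbr3 rose under both waters, and Gclc, Srxn1 and Txnrd1 rose in corticosterone livers. Gclm and Tkt passed the test in none of the 4 comparisons. For corticosterone against vehicle on the control diet, 3 of the 10 genes were called higher and 3 lower, and of all 12688 genes tested 22.5% were called higher and 21.7% lower. On the atglistatin diet corticosterone raised 3 and lowered 1, against a background of 19.0% higher and 17.7% lower. For atglistatin against control food, 4 were called higher and 0 lower under corticosterone (all genes, 5.19% higher and 6.47% lower), and 1 higher and 0 lower under vehicle (all genes, 1.47% and 1.66%). A call is an adjusted p of at most 0.05 in edgeR's quasi-likelihood test. The median log2 fold change of the 10 genes was 0.03 and 0.12 for corticosterone on the control and the atglistatin diet, and 0.30 and 0.17 for atglistatin under corticosterone and under vehicle. Over all genes the 4 medians lay between -0.00224 and 0.0169.

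**Figure D1:**
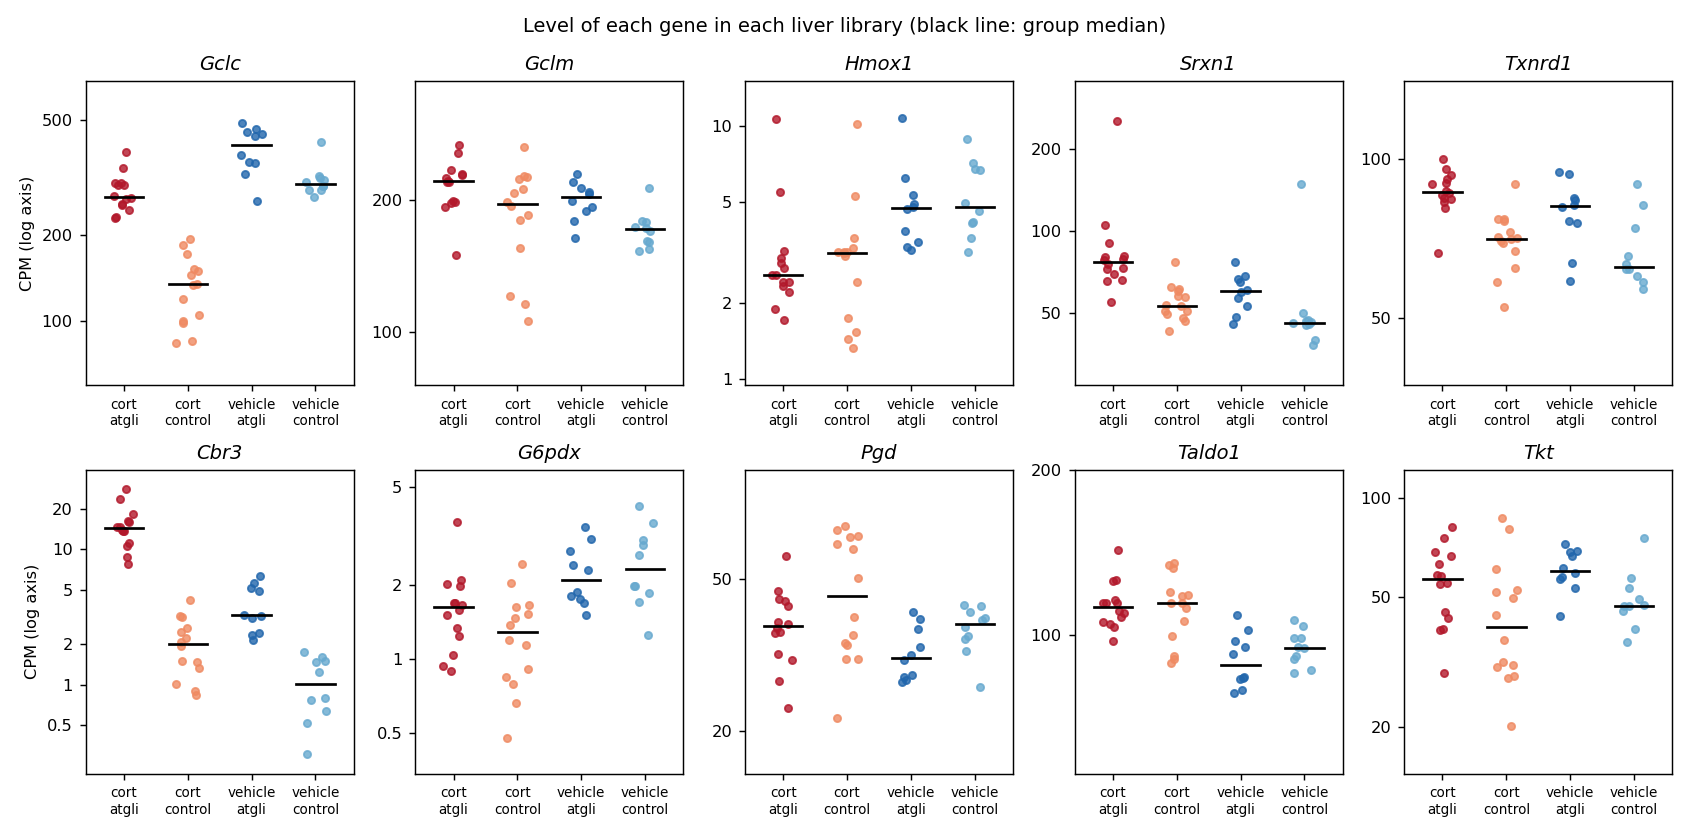
Level of each of the 10 genes in every liver library, in CPM on a log axis, by group; each point is 1 library and the black line is the group median (cort, corticosterone; atgli, atglistatin). Gclc in corticosterone control-diet livers (84.0 to 194 CPM) and Cbr3 in corticosterone atglistatin livers (7.84 to 27.7 CPM) lie apart from the other groups.

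Glutamate-cysteine ligase catalyses the rate-limiting step of glutathione synthesis and is made of a catalytic subunit, Gclc (chromosome 9, 77754535 to 77794485, plus strand, GRCm38), and a modifier subunit, Gclm (chromosome 3, 122245557 to 122270732, plus strand). Gclc was lowest where corticosterone was given without atglistatin. It ran from 84.0 to 194 CPM (median 134) in corticosterone control-diet livers, against 271 to 419 CPM (median 301) in vehicle control-diet livers. These groups did not overlap, which held for 3.43% of all genes in that direction. The log2 fold change was -1.23 ± 0.11 (SE), or 2.34-fold lower with corticosterone (adjusted p = 1.55e-12, lower in 14 of 14 livers). With atglistatin, Gclc ran from 228 to 387 CPM (median 271) in corticosterone livers and from 262 to 489 CPM (median 410) in vehicle livers. The ranges overlapped, and the corticosterone change was smaller, at -0.50 ± 0.11 (adjusted p = 0.000493). Read the other way, atglistatin raised Gclc 2.13-fold under corticosterone (log2 1.09 ± 0.11, adjusted p = 5.55e-11), with no overlap between the diets, which held for 0.229% of all genes in that direction. Under vehicle the atglistatin difference was 0.36 ± 0.12 and did not pass (adjusted p = 0.106, 95% interval 0.11 to 0.60). It passed under limma voom (adjusted p = 0.0205), in the fit of the 2 compared groups alone (adjusted p = 0.0405) and without vehicle control-diet replicate 12, the highest library of its group (0.42, adjusted p = 0.0455). The difference between the 2 corticosterone effects, tested as an interaction, was 0.73 ± 0.16 (adjusted p = 0.00984), 1 of the 181 interactions called (1.43% of all genes). Without the 6 libraries with Cpa1 above 20 CPM it was 0.75 with an adjusted p of 0.0512.

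Gclm did not follow its partner. In corticosterone livers it ran from 150 to 267 CPM (median 220) on atglistatin and from 106 to 263 CPM (median 196) on control food. Vehicle livers had 164 to 229 CPM (median 203) on atglistatin and 153 to 213 CPM (median 171) on control food. All 4 ranges overlapped. Corticosterone differences were 0.12 ± 0.10 on both diets (adjusted p = 0.358 on the control diet and 0.395 on the atglistatin diet). The interval of the control-diet difference, -0.08 to 0.32, leaves out a fall of the size seen for Gclc. Atglistatin differences were 0.22 ± 0.09 under corticosterone (adjusted p = 0.136, or 0.043 under limma voom) and 0.22 ± 0.11 under vehicle (adjusted p = 0.321).

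The log2 ratio of Gclc to Gclm within a library was chosen for testing after these values were seen. It averaged -0.49 ± 0.19 (SD, n = 14) in corticosterone control-diet livers, against 0.85 ± 0.11 (SD, n = 10) in vehicle control-diet livers. The difference was -1.35 ± 0.06 (SE), and the groups did not overlap (permutation test, 2-sided, adjusted p = 4e-05 over 8 ratio comparisons, from the smallest p that 100000 resamples can give). On atglistatin the ratio averaged 0.38 ± 0.23 (SD, n = 14) in corticosterone livers and 0.98 ± 0.29 (SD, n = 10) in vehicle livers, a difference of -0.60 ± 0.11 (permutation test, adjusted p = 8e-05). Atglistatin raised the ratio by 0.87 ± 0.08 under corticosterone (permutation test, adjusted p = 4e-05), again with no overlap, while the difference of 0.12 ± 0.10 under vehicle did not pass (permutation test, adjusted p = 0.249). In every corticosterone control-diet liver the ratio was below 0, at most -0.21. In the other 3 groups every library was above 0, the lowest at 0.06.

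**Figure D2:**
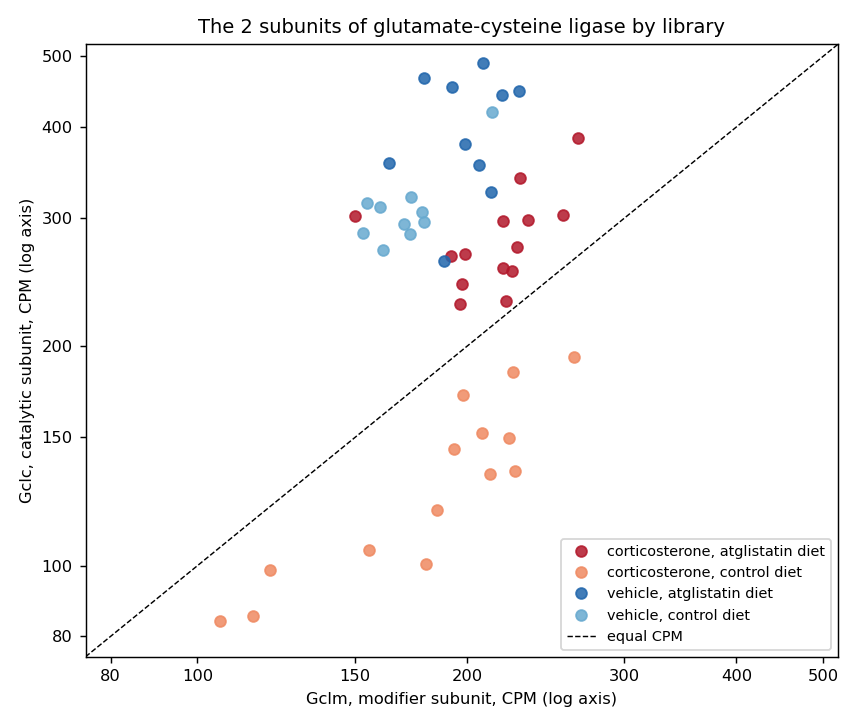
CPM of Gclc against CPM of Gclm in each of the 48 libraries, both on log axes, coloured by group; the dashed line marks equal CPM. The 14 corticosterone control-diet livers lie below the line and all others above it, over Gclm ranges that overlap.

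Srxn1 and Txnrd1 act in the thioredoxin system. Sulfiredoxin, the product of Srxn1 (chromosome 2, 152105516 to 152111376, plus strand), repairs overoxidised peroxiredoxins, and Txnrd1 (chromosome 10, 82833951 to 82897712, plus strand) encodes the cytosolic thioredoxin reductase, which uses NADPH. Srxn1 ran from 54.9 to 254 CPM (median 76.8) in corticosterone atglistatin livers and from 42.9 to 76.7 CPM (median 53.2) in corticosterone control-diet livers. Vehicle livers had 45.5 to 76.8 CPM (median 60.2) on atglistatin and 38.0 to 148 CPM (median 46.1) on control food. The values of 254 and 148 CPM belonged to 1 library each, corticosterone atglistatin replicate 41 and vehicle control-diet replicate 10, and the next highest in those groups were 106 and 50.0 CPM. Atglistatin raised Srxn1 1.62-fold under corticosterone (log2 0.69 ± 0.17, adjusted p = 0.00369, higher in 13 of 14 livers), and without replicate 41 the value was 0.47 (adjusted p = 0.0125), while without the mice labelled diabetic it was 0.82 and did not pass (adjusted p = 0.0689). Corticosterone raised it on the atglistatin diet by 0.57 ± 0.19 (adjusted p = 0.0136), a call that was lost without replicate 41 (0.34, adjusted p = 0.0591). Replicate 41 also had the highest summed Kupffer cell and macrophage markers of its group (469 CPM, next 198 CPM). The same held for adipocyte markers (121 CPM, next 30.5 CPM) and stellate cell markers (439 CPM, next 353 CPM). Its insulin value was the lowest of its group (2.19, next 5.67, no unit given). The part of these traits in the Srxn1 value was not tested. On the control diet the corticosterone difference was -0.01 ± 0.18 (adjusted p = 0.981), or 0.28 (adjusted p = 0.138) without vehicle control-diet replicate 10. The atglistatin difference under vehicle was 0.12 ± 0.20 (adjusted p = 0.83), or 0.42 without that library (adjusted p = 0.173). The interaction was 0.58 ± 0.26 (adjusted p = 0.355).

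Txnrd1 moved in a narrow range. It ran from 66.5 to 100 CPM (median 86.5) in corticosterone atglistatin livers, against 52.5 to 89.5 CPM (median 70.6) in corticosterone control-diet livers. In vehicle livers it ran from 58.8 to 94.3 CPM (median 81.4) on atglistatin and from 56.8 to 89.5 CPM (median 62.6) on control food. Atglistatin raised it 1.235-fold under corticosterone (log2 0.30 ± 0.07, adjusted p = 0.0023, higher in 13 of 14 livers), while the ranges overlapped. Under vehicle the difference was 0.24 ± 0.08 (adjusted p = 0.118), and it passed under limma voom (0.31, adjusted p = 0.00332) and without vehicle control-diet replicate 10 (0.29, adjusted p = 0.0339) or vehicle atglistatin replicate 7 (0.28, adjusted p = 0.0498), with an interaction of 0.07 ± 0.11 (adjusted p = 0.88). Corticosterone differences were 0.06 ± 0.08 on the control diet (adjusted p = 0.546) and 0.13 ± 0.08 on the atglistatin diet (adjusted p = 0.186).

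Cbr3 encodes a carbonyl reductase that uses NADPH (chromosome 16, 93683215 to 93690990, plus strand), and it had the largest fold changes of the 10 genes in 3 of the 4 comparisons. It ran from 7.84 to 27.7 CPM (median 14.3) in corticosterone atglistatin livers, against 0.835 to 4.20 CPM (median 2.001) in corticosterone control-diet livers. Vehicle livers had 2.13 to 6.31 CPM (median 3.26) on atglistatin and 0.307 to 1.74 CPM (median 1.02) on control food. Atglistatin separated the diets without overlap under both waters. The fold was 7.25 under corticosterone (log2 2.86 ± 0.21, adjusted p = 1.38e-14), the 9th highest of 658 genes called higher, and 3.61 under vehicle (log2 1.85 ± 0.29, adjusted p = 6.64e-05), the 14th highest of 186. Non-overlapping ranges in that direction were found for 0.229% and 0.166% of all genes under corticosterone and under vehicle. Corticosterone raised Cbr3 3.92-fold on the atglistatin diet (log2 1.97 ± 0.23, adjusted p = 1.02e-09), with no overlap (1.69% of all genes in that direction). On the control diet the rise was 1.95-fold (log2 0.97 ± 0.29, adjusted p = 0.00551, higher in 11 of 14 livers). That call was lost without the libraries with Cpa1 above 20 CPM (0.66, adjusted p = 0.0999) and without the mice labelled diabetic (0.18, adjusted p = 0.753). The interaction of 1.01 ± 0.37 did not pass (adjusted p = 0.196), and without the mice labelled diabetic it was 1.76 (adjusted p = 0.038).

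Cbr3 also differed among the corticosterone control-diet livers. It ran from 1.32 to 4.20 CPM (median 2.43) in the 9 mice labelled diabetic, against 0.835 to 1.93 CPM (median 1.02) in the 5 labelled nondiabetic. All 9 diabetic mice lay above the nondiabetic mean of 1.239 CPM, and the ranges overlapped. The log2 fold change was 1.05 ± 0.29 with an unadjusted p of 0.002 in edgeR, but nothing passed correction in this comparison (adjusted p = 0.992). Of 12003 genes 0 were called by edgeR (0.0%) and 0 by DESeq2, and 448 had an unadjusted p of at most 0.05. Pgd was the other member below that level, with 53.1 ± 15.6 CPM (SD, n = 9) in diabetic and 36.9 ± 13.9 CPM (SD, n = 5) in nondiabetic mice (log2 0.52 ± 0.23). Fed glucose in this group formed 2 clusters, of 10 mice at 242 to 407 and 4 mice at 131 to 145 in the labels' values, for which no unit is given. A correlation over all 14 spans the gap between the clusters, so its coefficient is not printed. Within the 10 mice of the upper cluster log2 Cbr3 had r = 0.62 (permutation test, p = 0.0399) and rho = 0.79 (permutation test, p = 0.00898) with glucose, and r = 0.69 without the 2 mice farthest from the median. This relation was singled out after 80 relations of the 10 genes with glucose and insulin within groups had been computed, of which 0 passed correction by Pearson's r and 1 by Spearman's rho, that of Cbr3 with glucose over the 14 mice of both clusters (permutation test, adjusted p = 0.0144). In that test a gradual relation with glucose and a difference between the clusters cannot be told apart.

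Hmox1 encodes the inducible heme oxygenase, which opens the heme ring and is high in macrophages that clear red cells (chromosome 8, 75093621 to 75100589, plus strand). Its counts were low, 12 to 175 per library. It ran from 1.71 to 10.7 CPM (median 2.58) in corticosterone atglistatin livers and from 1.33 to 10.2 CPM (median 3.17) in corticosterone control-diet livers. In vehicle livers it ran from 3.26 to 10.8 CPM (median 4.75) on atglistatin and from 3.18 to 8.94 CPM (median 4.78) on control food. The ranges overlapped widely while the corticosterone medians were lower. Corticosterone lowered Hmox1 1.6-fold on the control diet (log2 -0.67 ± 0.27, adjusted p = 0.0396, lower in 13 of 14 livers). This call was lost without the libraries with Cpa1 above 20 CPM (-0.55, adjusted p = 0.171) and without any 1 of 8 single libraries (vehicle control-diet replicates 3, 9, 10 and 11 and corticosterone control-diet replicates 27, 34, 36 and 37), with adjusted p up to 0.0862. On the atglistatin diet the difference was -0.63 ± 0.27 (adjusted p = 0.0609), and without corticosterone atglistatin replicate 41 it was -0.91 (adjusted p = 0.00193). It passed under limma voom (-0.88, adjusted p = 0.000212) and without the mice labelled diabetic (-0.63, adjusted p = 0.0426). It also passed without any 1 of 8 other libraries, at -0.65 to -0.72 (corticosterone atglistatin replicate 48, corticosterone control-diet replicates 34, 37 and 45, vehicle atglistatin replicates 5, 7 and 8 and vehicle control-diet replicate 9). Atglistatin differences were -0.04 ± 0.25 under corticosterone (adjusted p = 0.95) and -0.09 ± 0.29 under vehicle (adjusted p = 0.922). The summed level of 15 Kupffer cell and macrophage markers moved with Hmox1. It ran from 89.1 to 469 CPM (median 127) in corticosterone atglistatin livers, from 109 to 250 CPM (median 156) in corticosterone control-diet livers, from 224 to 426 CPM (median 330) in vehicle atglistatin livers and from 285 to 538 CPM (median 400) in vehicle control-diet livers. No marker was at 0 in all libraries, and the part of these cells in the Hmox1 result was not tested.

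**Figure D3:**
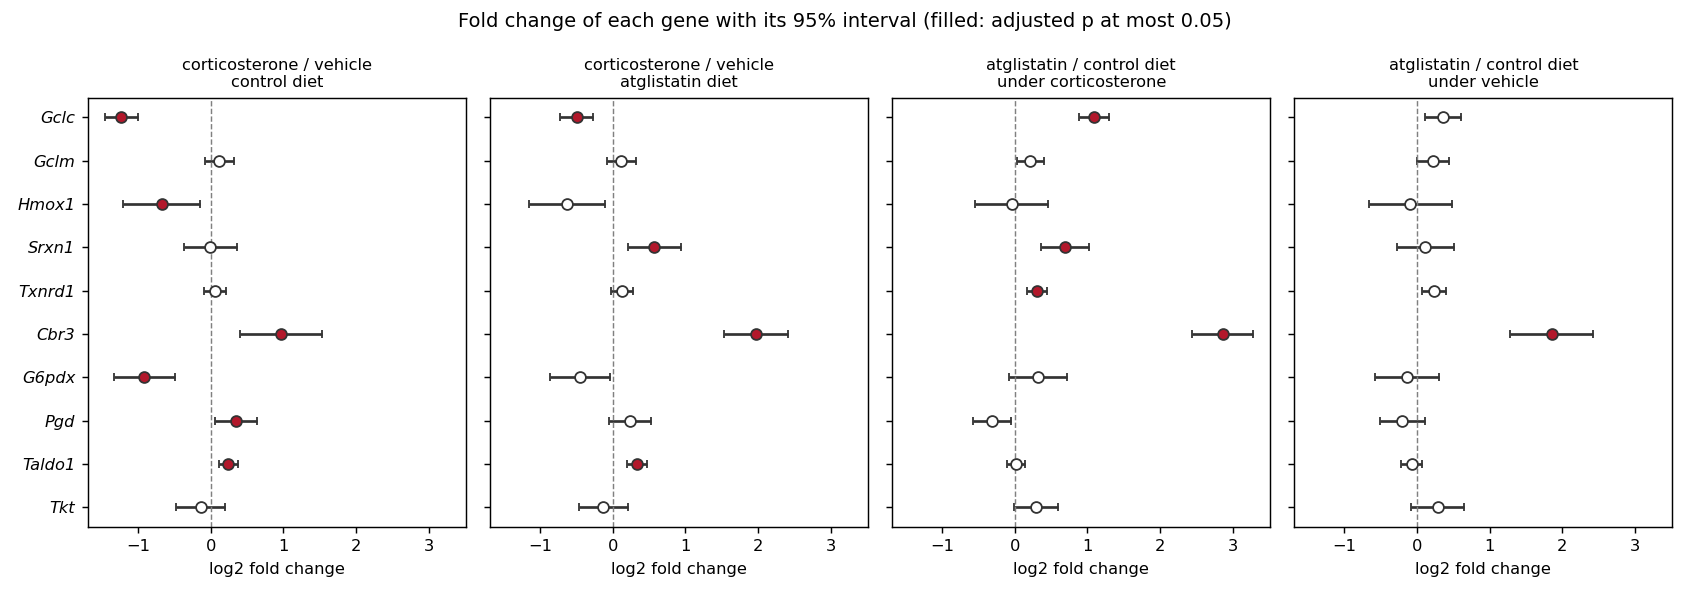
Log2 fold change of each of the 10 genes in the 4 comparisons, with 95% intervals; filled points have an adjusted p of at most 0.05 in edgeR. Cbr3 is to the right of 0 in all 4 panels, and Gclc is at -1.23 for corticosterone on the control diet and at 1.09 for atglistatin under corticosterone.

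The oxidative arm of the pentose phosphate pathway makes NADPH at its glucose-6-phosphate dehydrogenase step, encoded by G6pdx (chromosome X, 74409483 to 74429194, minus strand), and again at its 6-phosphogluconate dehydrogenase step, encoded by Pgd (chromosome 4, 149149991 to 149166771, minus strand). Under corticosterone on the control diet G6pdx was called lower, while Pgd was called higher only at the edge of the threshold, a call lost in most alternative fits. G6pdx had 4 to 78 counts per library. It ran from 0.892 to 3.61 CPM (median 1.62) in corticosterone atglistatin livers and from 0.480 to 2.42 CPM (median 1.29) in corticosterone control-diet livers. Vehicle livers had 1.51 to 3.42 CPM (median 2.09) on atglistatin and 1.25 to 4.19 CPM (median 2.32) on control food. Corticosterone lowered G6pdx 1.88-fold on the control diet (log2 -0.91 ± 0.22, adjusted p = 0.000517, lower in 14 of 14 livers), though the ranges overlapped. On the atglistatin diet the difference was -0.45 ± 0.21 (adjusted p = 0.0864), and without corticosterone atglistatin replicate 41 it was -0.60 (adjusted p = 0.0145), and under limma voom -0.57 (adjusted p = 0.00941). Atglistatin differences were 0.32 ± 0.20 under corticosterone (adjusted p = 0.341) and -0.14 ± 0.22 under vehicle (adjusted p = 0.818). G6pdx lies inside the annotated span of Ikbkg on the opposite strand. Since the strand setting of the counting is not given in the sources used here, reads of the 2 genes may not have been told apart.

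Pgd was most spread in corticosterone control-diet livers, where it ran from 21.7 to 68.7 CPM (median 44.95), against 26.04 to 42.7 CPM (median 38.2) in vehicle control-diet livers. On atglistatin it ran from 23.04 to 57.3 CPM (median 37.6) in corticosterone livers and from 26.8 to 40.9 CPM (median 31.1) in vehicle livers. Every range overlapped the others. The corticosterone difference on the control diet was 0.35 ± 0.15 (adjusted p = 0.0474, higher in 8 of 14 livers), at the edge of the threshold. It was -0.02 (adjusted p = 0.932) without the mice labelled diabetic, and the call was also lost under DESeq2 (adjusted p = 0.0506) and limma voom (adjusted p = 0.144), and without any 1 of 24 single libraries (adjusted p up to 0.111). In edgeR it was lost with RLE factors (adjusted p = 0.0564) and without the filter (0.0545). It was also lost in the fit of the compared groups alone (0.102) and without the libraries with Cpa1 above 20 CPM (0.126). The other differences were 0.24 ± 0.15 for corticosterone on the atglistatin diet (adjusted p = 0.204), -0.31 ± 0.13 for atglistatin under corticosterone (adjusted p = 0.124, or -0.39 with 0.0331 without corticosterone control-diet replicate 29) and -0.20 ± 0.16 under vehicle (adjusted p = 0.578). The log2 ratio of G6pdx to Pgd, also chosen after the values were seen, was lower with corticosterone by 1.27 on the control diet (-5.22 ± 0.94 in corticosterone livers and -3.96 ± 0.49 in vehicle livers, SD, n = 14 and 10). A permutation test gave an adjusted p of 0.000864 for a difference of -1.27 ± 0.30. On the atglistatin diet the corticosterone difference of this ratio was -0.71 ± 0.15 (permutation test, adjusted p = 0.00048). Atglistatin raised the ratio by 0.65 ± 0.28 under corticosterone (permutation test, adjusted p = 0.0346), while the difference of 0.09 ± 0.18 under vehicle did not pass (permutation test, adjusted p = 0.625). The groups overlapped in all 4 comparisons.

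The non-oxidative arm is run by transaldolase, encoded by Taldo1 (chromosome 7, 141392199 to 141402968, plus strand), and transketolase, encoded by Tkt (chromosome 14, 30548359 to 30574720, plus strand). Taldo1 was higher with corticosterone on both diets and passed with atglistatin under neither water. It ran from 97.7 to 143 CPM (median 113) in corticosterone atglistatin livers, against 78.4 to 109 CPM (median 88.3) in vehicle atglistatin livers. On control food it ran from 89.0 to 136 CPM (median 115) in corticosterone livers, against 85.5 to 107 CPM (median 95.0) in vehicle livers. The ranges overlapped in part. Corticosterone raised Taldo1 1.26-fold on atglistatin (log2 0.33 ± 0.07, adjusted p = 0.000128, higher in 14 of 14 livers) and 1.18-fold on control food (log2 0.24 ± 0.07, adjusted p = 0.00319, higher in 11 of 14 livers). Without the mice labelled diabetic the control-diet value was 0.08 (adjusted p = 0.547). Atglistatin differences were 0.02 ± 0.06 under corticosterone, with a 95% interval of -0.11 to 0.14, and -0.07 ± 0.07 under vehicle, with an interval of -0.22 to 0.07.

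Tkt ran from 29.2 to 81.6 CPM (median 56.4) in corticosterone atglistatin livers and from 20.2 to 87.0 CPM (median 40.4) in corticosterone control-diet livers. In vehicle livers it ran from 43.6 to 72.4 CPM (median 59.9) on atglistatin and from 36.4 to 75.5 CPM (median 46.9) on control food. All groups overlapped. Corticosterone differences were -0.14 ± 0.17 on the control diet (adjusted p = 0.552) and -0.13 ± 0.17 on atglistatin (adjusted p = 0.586). Atglistatin differences were 0.29 ± 0.16 under corticosterone (adjusted p = 0.243, or 0.0423 under limma voom) and 0.29 ± 0.19 under vehicle (adjusted p = 0.468). Without the mice labelled diabetic, Tkt was lower with corticosterone on the control diet (-0.49, adjusted p = 0.0321) and higher with atglistatin under corticosterone (0.63, adjusted p = 0.0215).

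The pentose phosphate pathway and its neighbours were followed in a list of 15 further genes, of which 13 were tested. Genes such as Rbks and Prps1 are neighbours of the pathway, so the counts below are not of its steps alone. Corticosterone on the control diet raised 9 and lowered 2 of them (median log2 fold change 0.29), where 22.5% of all genes were called higher and 21.7% lower. On atglistatin it raised 6 and lowered 0 (median 0.26), where the shares were 19.0% and 17.7%. Shpk, which makes sedoheptulose 7-phosphate, rose by 0.73 ± 0.08 on the control diet and 0.32 ± 0.08 on atglistatin. Rbks, the ribokinase gene, rose by 0.54 ± 0.09 and 0.41 ± 0.09, and Prps1, which makes phosphoribosyl pyrophosphate from ribose 5-phosphate, rose by 0.50 ± 0.06 on the control diet. Rpia, which interconverts ribulose and ribose phosphates, was high in 1 group. It ran from 5.68 to 16.1 CPM (median 7.57) in corticosterone control-diet livers, against 2.80 to 5.68 CPM (median 4.27) in vehicle control-diet livers, and the corticosterone change was 1.10 ± 0.18. In corticosterone atglistatin livers it ran from 2.77 to 8.16 CPM (median 4.09), and the atglistatin change under corticosterone was -0.96 ± 0.16. With vehicle and atglistatin it ran from 2.60 to 6.14 CPM (median 4.45), and the interaction was -0.97 ± 0.25 (adjusted p = 0.0317). The interaction did not pass without the libraries with Cpa1 above 20 CPM (-0.81, adjusted p = 0.242), without the mice labelled diabetic (-0.82, adjusted p = 0.159), or without any 1 of 4 vehicle libraries (atglistatin replicates 6, 8 and 11 and control-diet replicate 15, adjusted p up to 0.0536). Under vehicle, atglistatin called 0 of the 13 by edgeR and 0 by DESeq2, against 1 by limma voom, and 1 had an unadjusted p under 0.05 in edgeR. Under corticosterone it called 2 higher (Prps2, 0.29 ± 0.08, and Prpsap1, 0.23 ± 0.07) and 3 lower, among them Rpia and Shpk (-0.36 ± 0.07), where 5.19% of all genes were called higher and 6.47% lower. The Prps2 call was lost without the mice labelled diabetic (0.31, adjusted p = 0.142) and the Prpsap1 call without corticosterone control-diet replicate 34 (0.20, adjusted p = 0.0502). Pgls, the lactonase between the 2 oxidative steps, differed by 0.08 ± 0.09 with corticosterone on the control diet and did not pass. H6pd, the endoplasmic reticulum counterpart of the oxidative enzymes, rose by 0.29 ± 0.10, and the epimerase Rpe by 0.27 ± 0.08. Neither passed without the mice labelled diabetic (adjusted p = 0.112 and 0.104), in a fit that kept only 5 corticosterone control-diet livers. Of 10 tested genes for other NADPH-producing enzymes, corticosterone on the control diet raised 2 (Nnt and Nadk, which did not pass without the mice labelled diabetic) and lowered 2 (Me2, -1.27 ± 0.29, and Idh1, -0.44 ± 0.07), while malic enzyme Me1 differed by 0.12 ± 0.17. These counts are near the shares over all genes, 22.5% higher and 21.7% lower. On the atglistatin diet corticosterone raised 0 and lowered 2 of the 10 (Me2, -1.63 ± 0.29, and Idh2, -0.45 ± 0.08). Atglistatin called 1 lower under corticosterone (Idh2, -0.28 ± 0.07, or -0.18 with an adjusted p of 0.348 without the mice labelled diabetic). Under vehicle it called 0 by edgeR, DESeq2 and limma voom, and 1 had an unadjusted p under 0.05 in edgeR.

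**Figure D4:**
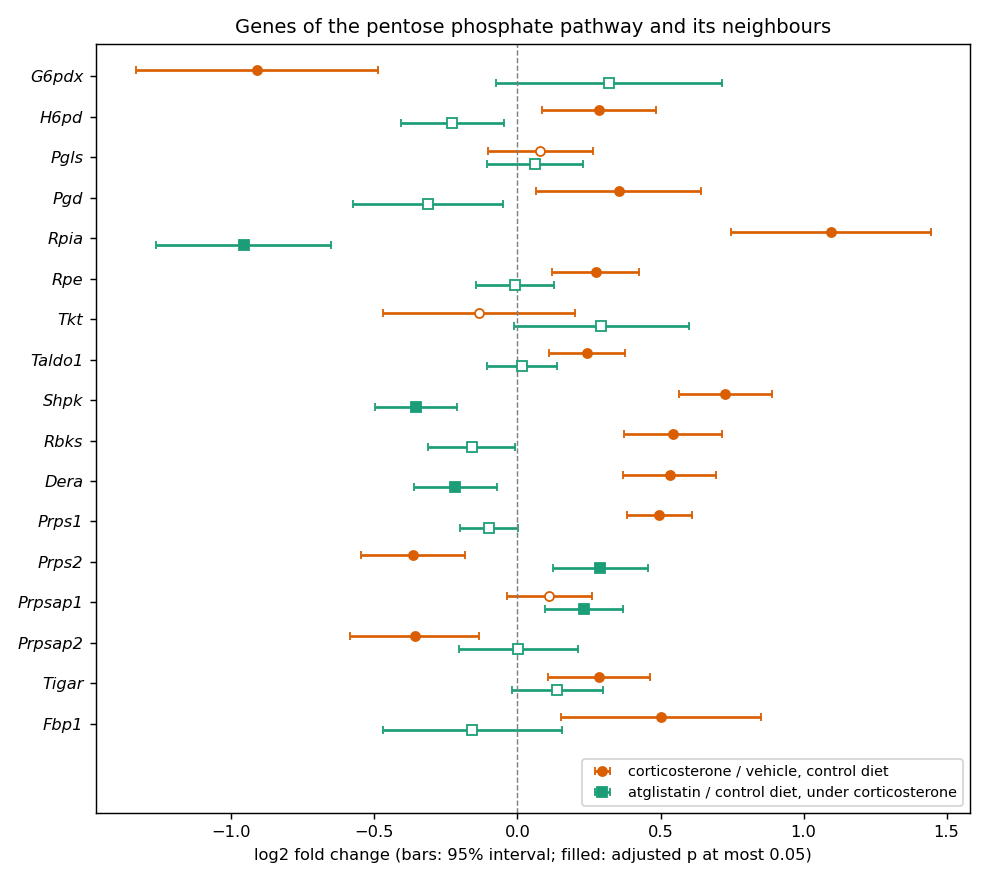
Log2 fold change with 95% interval of the 4 pentose phosphate genes described above and the 13 further genes of the list, for corticosterone against vehicle on the control diet (circles) and atglistatin against control food under corticosterone (squares); filled symbols have an adjusted p of at most 0.05. Both comparisons use the corticosterone control-diet livers. Rpia is at 1.10 and -0.96, and G6pdx at -0.91 and 0.32.

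The regulators of NRF2 were measured in a list of 12 genes. Corticosterone called 4 higher and 3 lower on control food and 2 higher and 1 lower on atglistatin, where the shares of all genes were 22.5% and 21.7%, and 19.0% and 17.7%. Nfe2l2, which encodes NRF2, was called higher in all 4 comparisons. It ran from 95.1 to 163 CPM (median 126) in corticosterone atglistatin livers and from 61.0 to 113 CPM (median 71.1) in corticosterone control-diet livers. In vehicle livers it ran from 75.7 to 100 CPM (median 86.0) on atglistatin and from 44.5 to 88.0 CPM (median 64.6) on control food. Atglistatin raised it by 0.66 ± 0.09 under corticosterone and by 0.41 ± 0.11 under vehicle. Corticosterone raised it by 0.55 ± 0.10 on atglistatin and by 0.29 ± 0.10 on control food. The control-food call was lost without the mice labelled diabetic (0.17, adjusted p = 0.366), without the libraries with Cpa1 above 20 CPM (adjusted p = 0.0547), in the fit of the compared groups alone (adjusted p = 0.0683) and without any 1 of 3 libraries (adjusted p up to 0.0581), and the vehicle call without any 1 of 4 (adjusted p up to 0.0663). Keap1, whose product targets NRF2 for degradation, fell by 0.17 ± 0.06 with corticosterone on control food and passed in no other comparison. Bach1, which encodes a repressor that competes at antioxidant response elements, fell by 0.70 ± 0.19 in the same comparison, and neither passed without the libraries with Cpa1 above 20 CPM (-0.13 and -0.24, adjusted p = 0.113 and 0.184). Rbx1, a subunit of the KEAP1 ubiquitin ligase, rose with corticosterone by 0.36 ± 0.07 on control food and 0.22 ± 0.07 on atglistatin. Mafk, a small MAF gene, fell by 0.44 ± 0.17 with corticosterone on atglistatin, a call lost without the mice labelled diabetic (adjusted p = 0.0646) or without any 1 of 8 libraries (adjusted p up to 0.101). Besides Nfe2l2, atglistatin called only Mafg, a small MAF partner, and only under vehicle (0.38 ± 0.09, or 0.30 with an adjusted p of 0.0822 without the libraries with Cpa1 above 20 CPM). Whether that differed from its value under corticosterone (0.18 ± 0.08) was tested by the interaction, -0.20 ± 0.12, which did not pass.

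Most calls among further NRF2 targets with atglistatin were rises. Of 31 listed genes 29 were tested, and atglistatin called 16 higher and 1 lower under corticosterone (median log2 fold change 0.42) and 11 higher and 0 lower under vehicle (median 0.38), where the shares of all genes called higher were 5.19% and 1.47%. The lower one was the carboxylesterase Ces2a, named after its value was seen. In both comparisons 10 genes were called higher, which is 62.5% of those called under corticosterone and 90.9% of those called under vehicle. The share of all genes called higher in both is not given here. The 2 comparisons share no library, but they were tested in 1 fit with a common estimate of the spread. The list was chosen with earlier results of these data known. Several genes on the list, such as glutathione transferases and conjugate transporters, are also known targets of the nuclear receptor CAR in liver. Gstm3, a glutathione transferase, rose by 1.88 ± 0.25 under corticosterone and 1.62 ± 0.30 under vehicle, and Gstm1 by 1.20 ± 0.09 and 0.95 ± 0.11. The Gstm genes have similar copies, so their counts may be shared. Nqo1, the quinone reductase most used as an NRF2 marker, had 7.16 to 12.8 CPM (median 9.52) in corticosterone atglistatin livers, against 2.23 to 8.17 CPM (median 4.88) in corticosterone control-diet livers. Under vehicle it had 5.79 to 9.57 CPM (median 7.502) on atglistatin and 0.967 to 5.11 CPM (median 3.99) on control food. The diets did not overlap under vehicle, which held for 0.166% of all genes in that direction. The atglistatin change of Nqo1 was 0.93 ± 0.16 under corticosterone and 1.04 ± 0.19 under vehicle. Ugdh, which makes UDP-glucuronate, rose by 0.69 ± 0.08 and 0.62 ± 0.09. Corticosterone called 9 higher and 7 lower on control food, where 22.5% of all genes were called higher and 21.7% lower. It called 8 higher and 7 lower on atglistatin, where the shares were 19.0% and 17.7%. Cbr1, the neighbour and close relative of Cbr3 (chromosome 16, 93605853 to 93610505), rose in all 4 comparisons, by 1.49 ± 0.18 and 1.27 ± 0.17 with corticosterone on control food and on atglistatin and by 0.64 ± 0.15 and 0.86 ± 0.18 with atglistatin under corticosterone and under vehicle. Osgin1 fell by 1.21 ± 0.25 with corticosterone on control food.

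**Figure D5:**
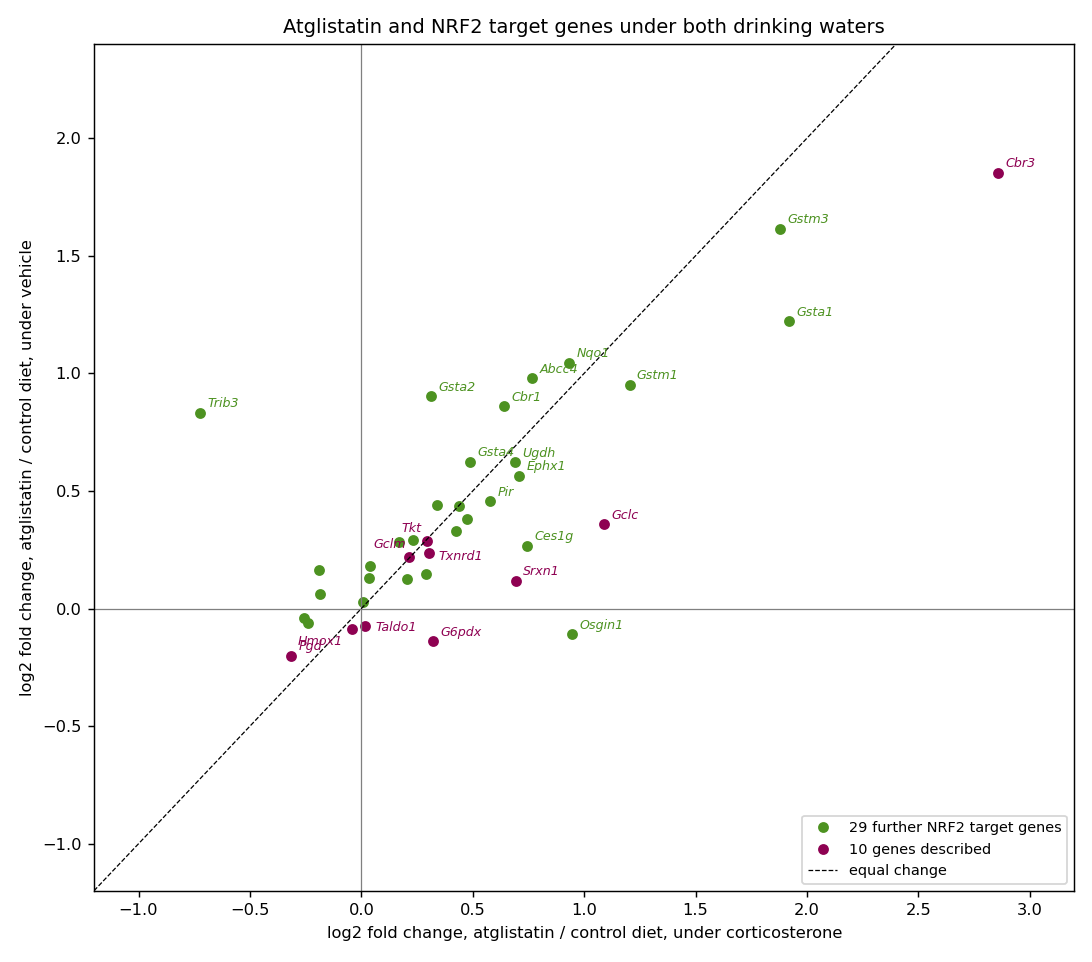
Log2 fold change with atglistatin under corticosterone (x axis) against that under vehicle (y axis) for the 10 genes described and 29 further NRF2 target genes; the dashed line marks equal change. Cbr3 lies at 2.86 and 1.85, Gclc at 1.09 and 0.36, and Nqo1 at 0.93 and 1.04.

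Of 19 tested genes of glutathione synthesis and use, corticosterone raised 6 and lowered 3 on control food and raised 8 and lowered 2 on atglistatin, while atglistatin raised 2 under corticosterone (median log2 fold changes 0.11, 0.21 and 0.07). The shares of all genes called higher and lower were 22.5% and 21.7% for corticosterone on control food and 19.0% and 17.7% on atglistatin, and 5.19% of all genes were called higher with atglistatin under corticosterone. Under vehicle, atglistatin called 0 of the 19 by edgeR and 0 by DESeq2, against 1 by limma voom, and 2 had an unadjusted p under 0.05 in edgeR (median 0.01). The secreted glutathione peroxidase Gpx3 rose by 2.26 ± 0.21 and 2.18 ± 0.21 with corticosterone on control food and on atglistatin, and the glutaredoxin Glrx by 1.23 ± 0.11 and 0.79 ± 0.10. Gss, the enzyme that follows glutamate-cysteine ligase, rose by 0.42 ± 0.09 with atglistatin under corticosterone. Gsr, which reduces glutathione disulfide with NADPH, rose by 0.31 ± 0.11 with corticosterone on control food, or by 0.06 without the mice labelled diabetic (adjusted p = 0.78). Of 20 genes of the thioredoxin, peroxiredoxin, catalase and superoxide dismutase systems, corticosterone raised 7 and lowered 4 on control food and raised 6 and lowered 0 on atglistatin, against the same shares. Atglistatin raised 1 and lowered 2 of the 20 under corticosterone. Under vehicle it called 0 by edgeR and 0 by DESeq2, against 2 by limma voom, and 3 had an unadjusted p under 0.05 in edgeR. The mitochondrial peroxiredoxin gene Prdx5 rose with corticosterone by 0.51 ± 0.06 on control food and 0.50 ± 0.06 on atglistatin. Txnip, whose product inhibits thioredoxin and is known to respond to glucose, rose by 1.51 ± 0.24 with corticosterone on control food and fell by 0.76 ± 0.21 with atglistatin under corticosterone, with an interaction of -1.21 ± 0.32. That interaction did not pass without the libraries with Cpa1 above 20 CPM (-1.02, adjusted p = 0.248), without the mice labelled diabetic (-1.19, adjusted p = 0.08) or without any 1 of 18 single libraries (adjusted p up to 0.0727), and the fall did not pass without the mice labelled diabetic (-0.75, adjusted p = 0.0605). It ran from 56.5 to 293 CPM (median 144) in corticosterone control-diet livers, against 30.5 to 86.4 CPM (median 50.5) in vehicle control-diet livers. Of the 8 genes of heme breakdown and ferritin, corticosterone raised 4 on each diet (all genes, 22.5% on control food and 19.0% on atglistatin), among them the ferritin heavy chain Fth1 (0.87 ± 0.11 on control food and 0.52 ± 0.11 on atglistatin), while Hmox1 went the other way. Of 5 erythroid markers 3 were called higher in the control-food comparison, and their part in these values was not tested. Blvrb, a biliverdin reductase, rose with atglistatin by 0.64 ± 0.11 under corticosterone and 0.47 ± 0.14 under vehicle, where the call was lost without the libraries with Cpa1 above 20 CPM (0.38, adjusted p = 0.295) or without any 1 of 11 single libraries (adjusted p up to 0.0918).

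Inside the groups the 10 genes were correlated in part. Log2 CPM with the group means removed gave 45 pairs over 48 libraries, tested by permutation within groups. By Pearson's r 13 pairs passed correction, all of them positive, and 6 passed by Spearman's rho as well. Gclc and Gclm, whose group means diverged, were correlated within groups (r = 0.70, rho = 0.67, permutation test, adjusted p = 0.00045 and 0.000675; r = 0.61 without the 2 outermost libraries). Within the 4 groups this r was 0.38 and 0.89 in corticosterone livers on atglistatin and on control food, and 0.23 and 0.77 in vehicle livers on atglistatin and on control food. Gclm and Tkt had r = 0.72 and rho = 0.63 (permutation test, adjusted p = 0.00045 and 0.000675; r = 0.68 without 2), and Gclc and Tkt r = 0.58 and rho = 0.56 (permutation test, adjusted p = 0.00214 and 0.00198; r = 0.46 without 2). Pgd and Taldo1 had r = 0.58 and rho = 0.57 (permutation test, adjusted p = 0.00165 and 0.0018; r = 0.52 without 2). Gclc and Gclm with Txnrd1 made up the other pairs that passed both, with r = 0.44 and r = 0.41. Hmox1 and Srxn1 (r = 0.45, rho = 0.20, permutation test, adjusted p = 0.0197 and 0.265) rested on the outermost libraries, since r was 0.15 without 2. These libraries share depth and composition within each value, and no batch was labelled.

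Among all 12687 other genes tested, likeness was measured as Pearson's r over the same 48 group-centred values, as a description. Gclm was the third most alike gene to Gclc, after BC005537 (r = 0.70), and Akr1c19 was the most alike to Gclm (r = 0.87). Cbr1 was the most alike to Cbr3 (r = 0.68). The most alike gene was Tkfc for Pgd (r = 0.78), Tmem135 for Taldo1 (r = 0.72), Aph1a for Tkt (r = 0.83), Ets2 for Srxn1 (r = 0.79), Abcf2 for Txnrd1 (r = 0.70), Ybx3 for Hmox1 (r = 0.71) and Mcm5 for G6pdx (r = 0.60). Pgd was 21st in the order of Taldo1, and Tkt was 44th in that of Gclm.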

How the data were processed

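Per the labels' protocols, RNA came from powdered frozen liver, purified on columns, and went into Lexogen QuantSeq libraries. The deposited table holds whole-number counts for 14251 genes in 48 libraries, and a further deposited table gives normalized signal values. The submitters' processing notes name GRCm38, R 3.6 and DESeq2 1.24.0. Dividing each library's counts by a single factor returned the normalized values to within a relative deviation of 5.3e-15, so the counts were tested and the signal values gave symbols and an alternative scale. Neither aligner nor counting program nor strand setting is given in the sources used here.

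The 10 genes, the gene lists and the tests were chosen with earlier results of these data known. Symbols came from the deposited table (12491 gene IDs) or GENCODE M21 (1728), and 32 had none. Coordinates are GENCODE M21. Leaving aside genes that overlap them in the genome, no other gene's transcript matched the last 500 bases of the 10 genes at 95% identity over at least 50 bases. The genes left aside include Ikbkg at G6pdx and Gm17494, which reaches the 3′ end of Gclm on the opposite strand.

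Genes were filtered with filterByExpr (minimum count 10, minimum total 15), which left 12688, and scaled with TMM. All 48 libraries entered 1 edgeR 4.0.16 fit (R 4.3.3) with a mean per group, tested by quasi-likelihood and adjusted over all genes by the Benjamini-Hochberg method. An interaction is the corticosterone effect on atglistatin minus that on control food. The diabetic labels were compared in the 14 corticosterone control-diet libraries alone (12003 genes). Values of ± beside log2 fold changes are SE, and intervals are 95%. Log2 CPM for ratios and correlations used a prior count of 1, and permutation tests 100000 resamples. The alternatives were RLE factors, no filter, DESeq2 1.42.0, limma 3.58.1 voom with sample weights, the compared groups alone, a replicate block, and fits without the mice labelled diabetic, the 6 libraries with Cpa1 above 20 CPM, or each library in turn. All 10 genes are named, and list genes were drawn from up to 4 called genes of each list with the smallest p in each comparison, and from preset NRF2 and pentose phosphate genes, and not all of them are printed. The test was checked on simulated counts, where false calls were 5% to 8% of the calls, depending on the comparison. Of simulated 1.5-fold changes, 77.3% (of 66 genes) were recovered for atglistatin under corticosterone, the highest share, and 43.1% (of 65 genes) for the diabetic labels, the lowest. The simulations changed fewer genes than were called in any of the 4 group comparisons, so these shares may not hold for the real data. The labels give no batch. Intervals and p-values cover the spread between libraries. 1 gene of the pentose phosphate list is not reported here.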

Additional observations from a re-analysis of the deposited data

Results flagged for a closer look

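In 40 sets of values (10 genes in the 2 vehicle groups of 10 and in the diabetic and nondiabetic mice of the corticosterone control-diet group), the gap between an extreme library and its neighbour was compared with Dixon's 95% critical value. It was exceeded 8 times, where chance gives about 1 in 20. Vehicle control-diet replicate 12 was the highest of its group for Gclc (419 CPM, next 320 CPM), Gclm (213 CPM, next 179 CPM) and Tkt (75.5 CPM, next 57.0 CPM). Vehicle control-diet replicate 10, 1 of the 6 libraries with Cpa1 above 20 CPM, stood out for Srxn1 (148 CPM, next 50.0 CPM). Vehicle atglistatin replicate 14, which also had the highest summed Kupffer cell and macrophage markers of its group (426 CPM), stood out for Hmox1 (10.8 CPM, next 6.26 CPM). Among the corticosterone control-diet mice labelled diabetic, replicate 45 was far above the others for Hmox1 (10.2 CPM, next 5.30 CPM) and Srxn1 (76.7 CPM, next 61.2 CPM). Among those labelled nondiabetic, replicate 36 was far below the others for Hmox1 (1.74 CPM, next 3.17 CPM).

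The corticosterone effect differed between the diets, by the interaction in edgeR, for 4 genes followed here. The interaction of Gclc was 0.73 on the log2 scale, positive because its fall was smaller on atglistatin. That of Txnip was -1.21. That of Rpia was -0.97, with a corticosterone change of 0.12 ± 0.18 on atglistatin, which did not pass, and 1.10 ± 0.18 on control food. That of Trib3, a pseudokinase gene on the NRF2 target list, was -1.56, with a corticosterone change of -1.31 ± 0.27 on atglistatin and 0.24 ± 0.28 on control food. It did not pass without vehicle atglistatin replicate 14 (-1.38, adjusted p = 0.0558). Without the libraries with Cpa1 above 20 CPM none of the 4 passed (adjusted p = 0.0512 for Gclc, 0.242 for Rpia, 0.248 for Txnip and 0.124 for Trib3). Without the mice labelled diabetic Rpia (0.159), Txnip (0.08) and Trib3 (0.177) did not pass.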

How the results depend on the processing

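Calls of the 10 genes were computed again under each alternative. The omission of each library in turn is left aside here, but a planned fit without corticosterone atglistatin replicate 41 is included. Then 419 values stayed on their side of the threshold, 17 lost and 13 gained a call, and 1 reversed. The reversed value was Pgd with corticosterone on the control diet (-0.024 without the mice labelled diabetic). A value counted as reversed only where its sign changed and the main or the alternative fit called it. Sign changes between uncalled values are among the 419. Omitting libraries in turn left 2493 values on their side, with 33 calls lost and 14 gained. For atglistatin under vehicle, 397 genes and 1 of the 10 were called, against 899 and 3 under limma voom, 2 of the 10 with the compared groups alone, and 207 genes without the libraries with Cpa1 above 20 CPM. For atglistatin under corticosterone, 609 genes were called without the mice labelled diabetic, against 1479 with them. For corticosterone on the control diet the count was 3614 genes without these mice, against 5606 with them, and without the Cpa1 libraries 3 of the 10 genes were called, against 6. The fit without the mice labelled diabetic kept only 5 corticosterone control-diet libraries. The effects of the label and of the fewer libraries cannot be told apart in it. The interaction called 181 genes and 1 of the 10, against 359 genes under limma voom, 76 genes and 2 of the 10 without the mice labelled diabetic, and 64 genes and 0 of the 10 without the Cpa1 libraries. The cause was not tested. Omitting 1 library gave 277 to 519 genes and 1 to 2 of the 10 for atglistatin under vehicle, 1253 to 1719 and 4 to 5 under corticosterone, 5277 to 5732 and 4 to 6 for corticosterone on the control diet, 4247 to 4710 and 4 to 5 on atglistatin, and 122 to 237 and 1 for the interaction. For the diabetic labels it was 0 genes in each case. Libraries with the same number in their titles did not deviate together (correlations -0.117 to 0.029). The labels do not say that the number marks a shared animal, litter or day, and these few correlations cannot decide it. The main fit therefore used no block. With a replicate block, 4 genes and 0 of the 10 were called for atglistatin under vehicle and 56 genes and 1 of the 10 for corticosterone on atglistatin. This fit kept only libraries whose numbers occur in both groups, 9 to 12 for the former and 13 and 14 for the latter. It lost the calls of Cbr3 in the former and of Taldo1, Gclc and Srxn1 in the latter, which are among the 17 above. The effects of the block and of the fewer libraries cannot be told apart. No paired analysis was possible for the other comparisons because those groups share no numbers. G6pdx (4 to 78 counts a library), Cbr3 (3 to 453) and Hmox1 (12 to 175) are limited by depth.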
